A study of Mus musculus with 6 samples.

Results

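The TGF-beta and activin branch of the TGF-beta superfamily was followed at the distal end of the embryonic mandible through 10 of the 21827 genes listed for each library. The members were chosen by gene symbol and role, by a rule that uses none of their values but was written with earlier results of these data known: the ligand genes Tgfb1, Tgfb2, Tgfb3 and Inhba, the receptor genes Tgfbr1, Tgfbr2 and Tgfbr3, the signal-transducing Smad2 and Smad3, and Fst, the gene of the activin-binding protein follistatin. All 10 were found, on 1 row each, and all 10 reached 1 TPM (a transcript's share of its library, corrected for length) in at least 3 of the 6 libraries. Such a filter was passed by 12152 genes.

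TGF-beta and activin ligands bind a type II receptor (TGFBR2 for the TGF-betas), which activates a type I receptor (TGFBR1 for the TGF-betas). The type I receptor phosphorylates SMAD2 and SMAD3, and these enter the nucleus with SMAD4. TGFBR3, or betaglycan, is a co-receptor that presents TGF-beta ligands, TGF-beta2 in particular, and follistatin traps activins outside the cell. In the developing jaw and palate the pathway is known for its roles in neural crest-derived mesenchyme, in growth of the palatal shelves and in early tooth development.

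The 6 libraries are polyadenylated RNA from single embryos at E10.75, in midgestation, with 1 embryo labelled mutant and 1 labelled control from each of 3 litters. By the labels the mutants are Msx1f/f;Msx2f/f;Rosa26mTmG/+;Hand2-Cre and the controls are Msx1f/+;Msx2f/f;Rosa26mTmG/+;Hand2-Cre. Every embryo therefore carries Hand2-Cre (Cre recombinase driven by Hand2 regulatory sequence), 2 floxed copies of Msx2 and 1 copy of the Rosa26 mTmG reporter, which turns recombined cells from red to green. By the labels no embryo has a copy of Msx2 that is not floxed, while the controls have 1 such copy of Msx1. Cells without Hand2-Cre activity keep their Msx genes. The dissected tip was taken by its green signal under a microscope and was not sorted into cells. The mesenchyme markers Hand2, Prrx1, Twist1, Dlx5, Pdgfra and Alx4 all passed the filter, and their summed level was 870 to 958 TPM in the 6 libraries.

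Msx1, the homeobox gene whose floxed dose separates the labels, had 1.90 TPM under the mutant label and 84.1 TPM under the control label in litter 1. In litter 2 the mutant label had 78.8 TPM of Msx1 and the control label 2.61 TPM, and in litter 3 these levels were 73.3 and 1.99 TPM. Msx1 thus went against the label in 4 of 6 libraries. Within each litter, the library under 10 TPM is called here low-Msx1 (labelled mutant in litter 1, labelled control in litters 2 and 3) and the one over 50 TPM high-Msx1 (labelled control in litter 1, labelled mutant in litters 2 and 3). These names state a measured level and not a genotype, so differences between them are given litter by litter, as a description without a test. The deposited comparison of the authors, whose direction is not stated, gave Msx1 a log2 fold change of -5.19 ± 0.26 (SE), so a negative value in it has the sign of Msx1. In log2(TPM + 1), Msx1 differed by -4.87, -4.47 and -4.63 in the 3 litters, low-Msx1 minus high-Msx1. Between the libraries labelled mutant and control, limma gave it 1.41 ± 1.95 (SE). The grouping behind the deposited value is not stated, but its size is near that of the split by Msx1 level.

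2 libraries stood apart in other ways. The library labelled mutant of litter 1 had 20835 TPM summed over 6 red blood cell markers, against 6405 to 9055 TPM in the other 5. The library labelled control of litter 1 had 8.03% of its listed TPM in mitochondrial transcripts, against 6.02% to 6.51%. Both are in litter 1, so values are given litter by litter, and the count of members with 1 direction is also given without it.

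The 10 members differed widely in level. Smad2, Tgfbr1 and Smad3 had median levels of 59.1, 55.6 and 50.3 TPM, and their ranges over the libraries overlapped. Tgfb2 followed, with a median of 19.0 TPM and a range that overlapped with no other member. Tgfbr2, Tgfbr3, Tgfb1 and Tgfb3 had medians of 5.83, 5.68, 4.62 and 4.38 TPM, and the ranges of neighbours in this order overlapped. Fst and Inhba were lowest, with medians of 1.93 and 1.14 TPM and overlapping ranges. Tgfbr1 exceeded Tgfbr2 8.46-fold to 12.0-fold in each library, so the 2 subunits of the TGF-beta receptor were at unequal transcript levels throughout. The level of each member in each library is plotted on a log axis.

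**Figure D1:**
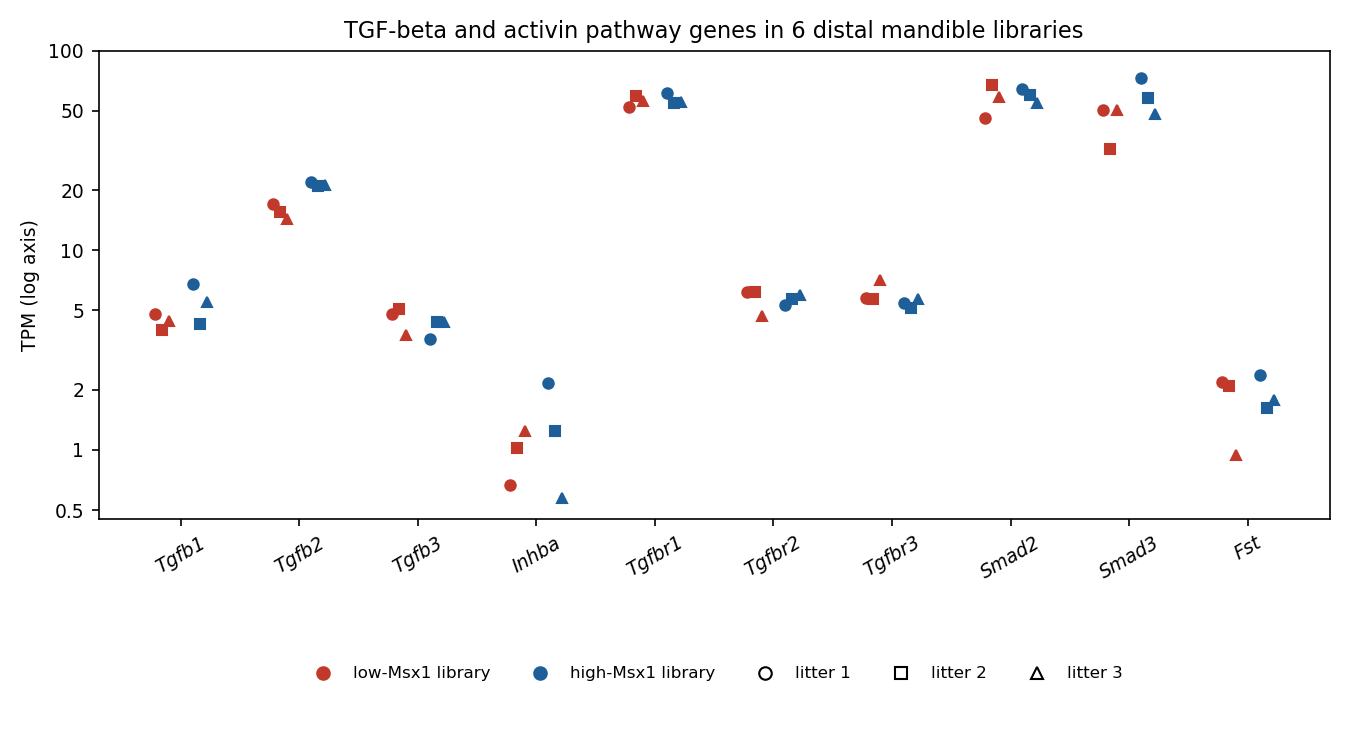
TPM (log axis) of the 10 members in each of the 6 libraries, with 1 point per library, coloured by Msx1 level and shaped by litter. Tgfb2 is the member whose 3 low-Msx1 points, at 14.4 to 17.0 TPM, all lie below the high-Msx1 points, at 21.0 to 22.1 TPM.

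Among the ligands, Tgfb2 was the most abundant and showed the closest relation to Msx1 level. Tgfb2 (ENSMUSG00000039239, chromosome 1, 186622792 to 186705989, minus strand, GRCm38) was at 17.0 TPM in the low-Msx1 and 22.1 TPM in the high-Msx1 library of litter 1. In litter 2 it was at 15.7 TPM in the low-Msx1 and 21.0 TPM in the high-Msx1 library, and in litter 3 at 14.4 and 21.2 TPM respectively. The 3 low-Msx1 libraries were all below the 3 high-Msx1 libraries, with no overlap, and were lower than their littermates by 23.0%, 25.6% and 32.3%. Of the 12152 genes past the filter, 4.95% had all low-Msx1 libraries below all high-Msx1 libraries, and 1 of the 10 members, Tgfb2, did so. The log2(TPM + 1) differences, low-Msx1 minus high-Msx1, were -0.36, -0.40 and -0.53, and 15.0%, 7.05% and 5.08% of genes had a lower difference in the respective litter. The median difference of all genes was -0.09, 0.01 and 0.08 in the 3 litters, and relative to it Tgfb2 was at -0.26, -0.41 and -0.62.

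The log2 fold change of Tgfb2 in the authors' deposited table was -0.45 ± 0.16 (SE), with an unadjusted p of 0.00375 and an adjusted p of 0.994. A normal 95% interval from that SE runs from -0.76 to -0.15. Tgfb2 therefore did not pass the table's adjustment, which 0.0961% of its genes passed, and none of the 10 members did. At an unadjusted p under 0.05 the table called 1.85% of all its 17605 genes with a p, past the TPM filter or not. Among the 12152 genes past the filter, it called 144 negative and 140 positive ones. Of the 10 members, all past the filter, it called 2, Tgfb2 and Smad3. The table rests on the same 6 libraries as the TPM, so it is not a second measurement. Whether fewer cells expressed Tgfb2 or each held less of its RNA cannot be told apart in bulk tissue. The summed level of the 6 mesenchyme markers was 870 to 923 TPM in the low-Msx1 and 929 to 958 TPM in the high-Msx1 libraries. Its low-to-high ratios were 0.917, 0.948 and 0.994, so the littermates of litter 3 were nearly level. The sums of the other marker sets (epithelium, endothelium, muscle, neurons, glia, red blood cells and macrophages) overlapped between low-Msx1 and high-Msx1 libraries. How often sums of gene sets beyond these markers show no overlap was not examined. Of the 6 mesenchyme markers, 3 (Prrx1, Dlx5 and Alx4) were lower in the low-Msx1 library of all 3 litters. Twist1 was higher in all 3, and Hand2 and Pdgfra were mixed. The 8 epithelial markers had ratios of 0.903, 0.935 and 1.03. The ratios of Tgfb2 were 0.770, 0.744 and 0.677, and the part of mesenchyme or epithelium content in them was not tested.

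The 250 bases before the annotated start of Tgfb2 are shown because all its low-Msx1 libraries were below all its high-Msx1 libraries. The 250 bases before Inhba are shown because of the motifs seen in them, although Inhba went in both directions by Msx1 level. Both are from RefSeq (GRCm38.p6), written 5′ to 3′ on the strand of the gene. Capitals mark TAAT, the core that homeodomain proteins such as MSX1 bind, its longer form TAATTG, and CAGAC, a short SMAD-binding element. Both strands were searched, TAATTG contains TAAT, and a match is not evidence of a bound site.
Tgfb2 (chr1:186705990-186706239, minus strand): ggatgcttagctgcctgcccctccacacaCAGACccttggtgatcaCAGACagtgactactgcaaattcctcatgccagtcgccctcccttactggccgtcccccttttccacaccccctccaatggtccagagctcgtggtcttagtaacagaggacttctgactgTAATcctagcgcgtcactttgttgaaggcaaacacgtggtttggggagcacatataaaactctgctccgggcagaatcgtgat
Inhba (chr13:16011601-16011850, plus strand): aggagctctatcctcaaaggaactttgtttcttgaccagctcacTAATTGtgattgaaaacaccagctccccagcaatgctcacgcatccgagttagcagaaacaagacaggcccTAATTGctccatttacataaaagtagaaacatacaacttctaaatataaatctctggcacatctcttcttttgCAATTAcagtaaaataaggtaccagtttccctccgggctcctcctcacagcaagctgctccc

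The Tgfb2 window holds 2 CAGAC and 1 TAAT, and no TAATTG. Of 32851 mouse windows of the same length, 42.2% hold CAGAC and 54.9% hold TAAT on either strand. The Inhba window holds 3 TAATTG, the last of which is printed as its reverse complement CAATTA. That motif is in 7.17% of windows on either strand, and 15 windows (0.0457%) hold 3 or more of it. The Inhba window was singled out after its letters were seen. RefSeq windows were found for 6 of the 10 members. Tgfbr3, which also separated by Msx1 level but in the opposite direction, was not among them, so its promoter was not searched.

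Tgfb1 and Tgfb3, the other TGF-beta ligand genes, were well below the Tgfb2 level in every library. Tgfb1, whose product is best known from blood vessels and immune cells, was at 4.81 TPM in the low-Msx1 and 6.76 TPM in the high-Msx1 library of litter 1. In litter 2 its levels were 3.98 and 4.28 TPM, and in litter 3 they were 4.42 and 5.54 TPM, in the same order. Tgfb1 was thus lower in the low-Msx1 library of each litter, by 28.8%, 7.04% and 20.2%, but the 2 sets of libraries overlapped. In the authors' deposited table it had a log2 fold change of -0.31 ± 0.46 (SE). Tgfb3, the isoform needed for fusion of the palate, went in both directions: it was at 4.81 and 3.59 TPM in litter 1, 5.08 and 4.40 TPM in litter 2, and 3.76 and 4.36 TPM in litter 3, low-Msx1 library first. Its fold change in the authors' deposited table was 0.14 ± 0.36 (SE). Tgfb3 overlaps Ttll5 (16.2 to 24.5 TPM) on the opposite strand, and strandedness is not given in the sources used here.

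Because TPM are per length, the ligand levels can be set against each other within a library. Tgfb2 made up 63.9%, 63.4% and 63.7% of the summed TPM of Tgfb1, Tgfb2 and Tgfb3 in the low-Msx1 libraries of litters 1, 2 and 3. It made up 68.1%, 70.8% and 68.2% in their high-Msx1 littermates. The 2 sets did not overlap, and how often other such shares do so was not examined. A share within a library does not depend on how libraries are scaled to each other. The summed level of the 3 ligand genes was 26.6, 24.7 and 22.5 TPM in the low-Msx1 libraries and 32.5, 29.7 and 31.1 TPM in their littermates. These measures come from the values above, which were seen before the share was formed. Tgfb2 is the largest part of the sum and had already separated by Msx1 level, so neither measure is separate support.

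**Figure D2:**
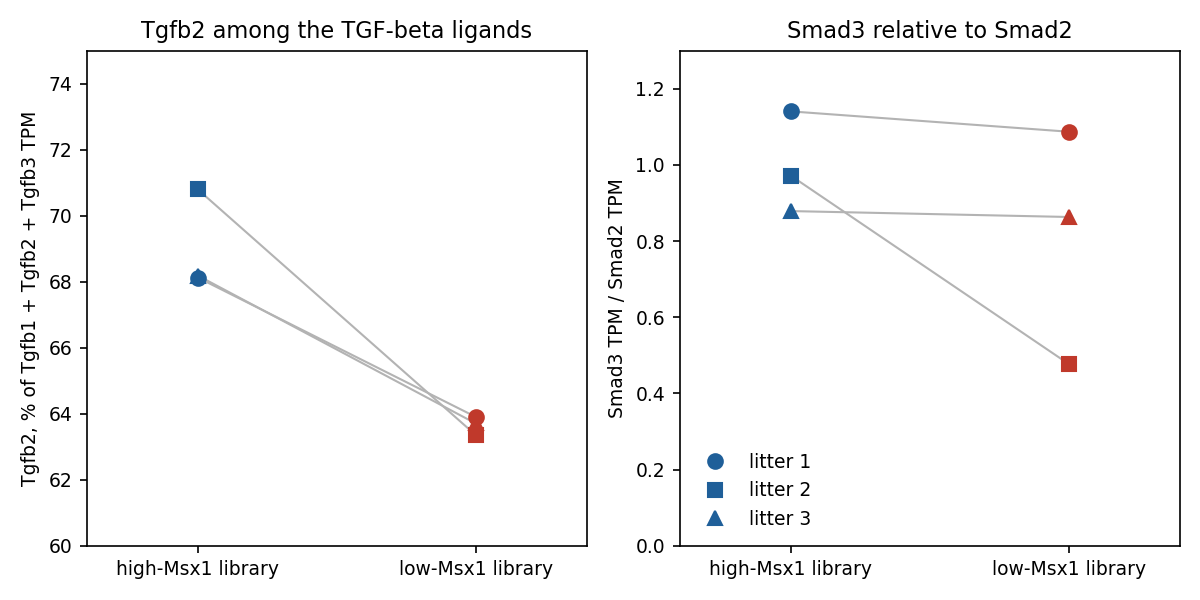
Left, Tgfb2 as a percentage of the summed TPM of Tgfb1, Tgfb2 and Tgfb3 (axis from 60% to 75%), and right, the ratio of Smad3 to Smad2 TPM, in high-Msx1 and low-Msx1 libraries, with lines joining littermates. The Tgfb2 share is 63.4% to 63.9% in low-Msx1 and 68.1% to 70.8% in high-Msx1 libraries, while the Smad ratio differs widely between littermates in litter 2 only.

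Inhba, which encodes the subunit of activin A, a ligand of early tooth mesenchyme, varied in both directions at a level near 1 TPM. It was at 0.670 TPM in the low-Msx1 and 2.15 TPM in the high-Msx1 library of litter 1, while litter 2 had 1.03 and 1.24 TPM, and litter 3 had 1.25 and 0.577 TPM. The order of litter 3 was opposite to that of the others. Fst, whose product binds activins, was at 2.18 and 2.37 TPM in litter 1, 2.08 and 1.63 TPM in litter 2, and 0.944 and 1.77 TPM in litter 3, low-Msx1 library first. The ratio of Inhba to Fst ranged from 0.308 to 1.32 over the libraries, with the lowest and the highest value both in low-Msx1 libraries. The fold changes in the authors' deposited table were -0.29 ± 0.61 for Inhba and -0.20 ± 0.62 (SE) for Fst. At base means of 43.1 and 33.4 normalised counts, their 95% intervals (-1.49 to 0.90 and -1.41 to 1.00) span more than 2 log2 units for either gene.

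Of the TGF-beta receptor genes, Tgfbr1 and Tgfbr2 went in both directions between littermates and Tgfbr3 in one. Tgfbr1, the type I receptor gene, was at 52.0 and 61.2 TPM in litter 1, 59.5 and 55.0 TPM in litter 2, and 56.1 and 55.2 TPM in litter 3, low-Msx1 library first. The difference of litter 1 had the opposite sign to the others in unscaled TPM. With median-of-ratios scaling the log2 differences were -0.12, 0.10 and -0.07, so litter 2 then had the opposite sign. Tgfbr1 has the smallest standard error of the members, at a log2 fold change of -0.03 ± 0.11 (SE) in the authors' deposited table and a 95% interval from -0.25 to 0.19. Tgfbr2, the type II receptor gene, was at 4.68 to 6.16 TPM in the low-Msx1 and 5.31 to 5.96 TPM in the high-Msx1 libraries. Its fold change in the authors' deposited table was -0.01 ± 0.26 (SE).

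Tgfbr3, the betaglycan gene, was the member with the opposite pattern to Tgfb2. Tgfbr3 (ENSMUSG00000029287, chromosome 5, 107106570 to 107289629) was at 5.76 and 5.46 TPM in litter 1, 5.68 and 5.14 TPM in litter 2, and 7.12 and 5.67 TPM in litter 3, low-Msx1 library first. All 3 low-Msx1 libraries were above all high-Msx1 libraries, as for 4.36% of genes past the filter, but the closest values were 5.677 and 5.674 TPM. The low-to-high ratios were 1.05, 1.10 and 1.26. In the authors' deposited table its log2 fold change was 0.18 ± 0.23 (SE; unadjusted p = 0.422), and the 95% interval runs from -0.26 to 0.62.

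**Figure D3:**
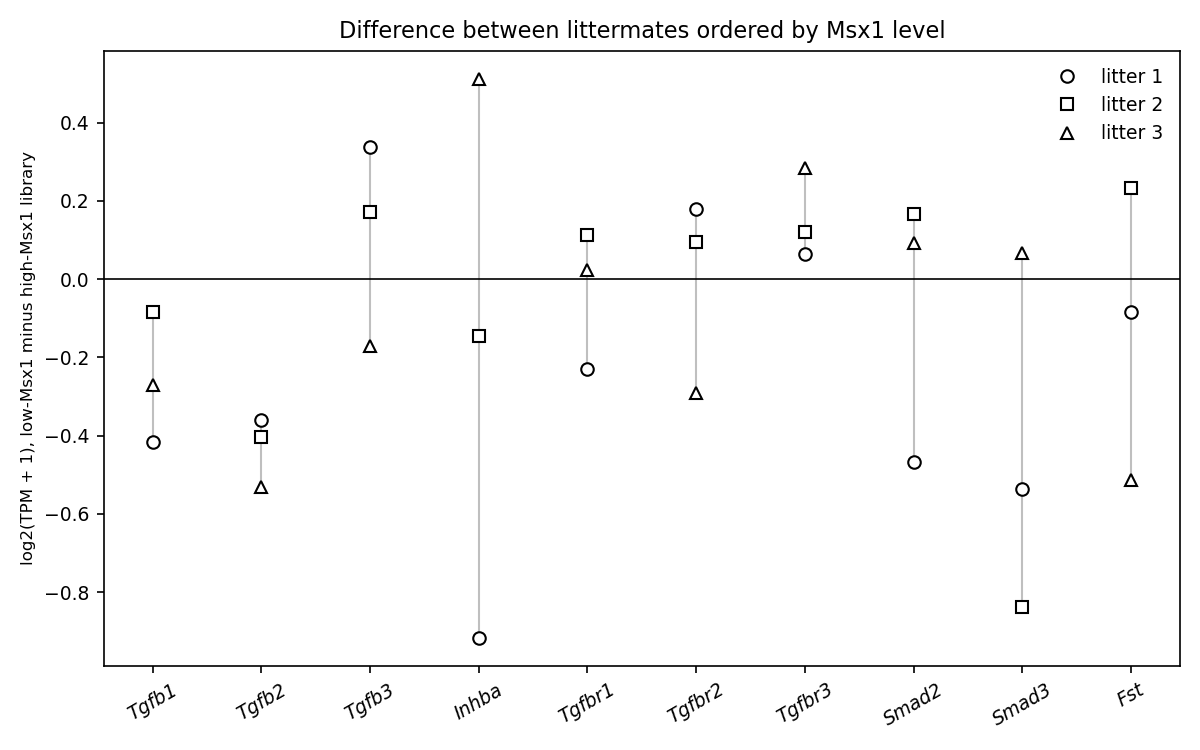
Difference in log2(TPM + 1) between the low-Msx1 and the high-Msx1 library of each litter for the 10 members, with 1 symbol per litter. Tgfb1 and Tgfb2 are below 0 and Tgfbr3 above 0 in all 3 litters, and the 3 differences of Tgfb2 run from -0.53 to -0.36.

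Smad2 and Smad3, the transducers that both branches share, were at similar levels but varied differently. Smad3 (ENSMUSG00000032402, chromosome 9, 63646767 to 63757994, minus strand) was at 50.2 TPM in the low-Msx1 and 73.3 TPM in the high-Msx1 library of litter 1. Its levels were 32.1 and 58.1 TPM in litter 2, and 50.4 and 48.1 TPM in litter 3. The low-Msx1 library was lower by 31.5% and 44.8% in litters 1 and 2, while the littermates of litter 3 were nearly level, in the opposite order. The authors' deposited table gave Smad3 a log2 fold change of -0.44 ± 0.17 (SE; unadjusted p = 0.00961, adjusted p = 1.00), of much the same size as that of Tgfb2. Unlike Tgfb2, Smad3 had overlapping sets of libraries, and its difference was carried by 2 of 3 litters.

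Smad2 was at 46.2 and 64.3 TPM in litter 1, 67.2 and 59.8 TPM in litter 2, and 58.4 and 54.7 TPM in litter 3, low-Msx1 library first. Litter 1 again went against the other 2 litters in unscaled TPM. With median-of-ratios scaling the log2 differences of Smad2 were -0.36, 0.16 and -0.005, so litter 2 then had the opposite sign. The log2 fold change of Smad2 in the authors' deposited table was -0.07 ± 0.14 (SE), with a 95% interval from -0.34 to 0.20. The ratio of Smad3 to Smad2 was 1.09 and 1.14 in litter 1 and 0.863 and 0.879 in litter 3, so the littermates hardly differed in it. In litter 2 it was 0.477 in the low-Msx1 and 0.972 in the high-Msx1 library. The low ratio is thus found in 1 library, that labelled control of litter 2, and is the lowest of the 6.

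The 250 bases before the start of Smad3 (RefSeq, GRCm38.p6, 5′ to 3′) are shown as the promoter of the other member with a small unadjusted p, for comparison with Tgfb2. None of the motifs searched is in this window, so no letter is in capitals. Their GC content was 69.2%, against 53.6% for Tgfb2 and 43.2% for Inhba.
Smad3 (chr9:63757995-63758244, minus strand): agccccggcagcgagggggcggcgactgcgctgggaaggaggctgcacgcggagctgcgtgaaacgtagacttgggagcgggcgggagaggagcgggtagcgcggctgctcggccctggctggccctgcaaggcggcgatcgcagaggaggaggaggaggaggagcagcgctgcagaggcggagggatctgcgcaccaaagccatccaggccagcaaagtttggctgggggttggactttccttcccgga

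Over the 10 members, 2 were lower in the low-Msx1 library of all 3 litters (Tgfb1 and Tgfb2), 1 was higher in all 3 (Tgfbr3) and 7 were mixed. Of all genes past the filter, 22.7% had 1 direction in all 3 litters, so 3 of 10 members is near the background. Without litter 1, the litter of both unusual libraries, 5 of 10 members had the same direction in the remaining 2 litters, as did 51.5% of all genes past the filter: Tgfb1 and Tgfb2 were lower, and Tgfbr1, Smad2 and Tgfbr3 higher, though Tgfbr1 and Smad2 were at -0.07 and -0.005 in litter 3 with median-of-ratios scaling. By sign, 8 members were negative in the authors' deposited table and 2 (Tgfb3 and Tgfbr3) positive, with a median of -0.14, whereas 49.2% of the 12152 genes were negative, with a median of 0.003. None of the 8 passed the adjustment.

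**Figure D4:**
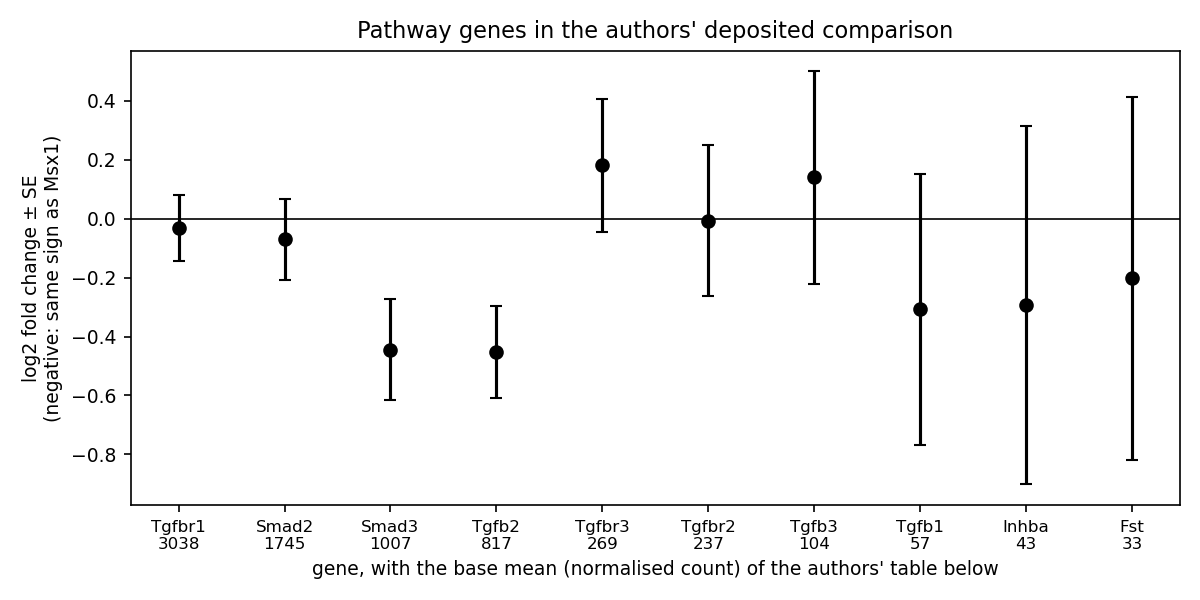
Log2 fold change ± SE of the 10 members in the authors' deposited table, ordered by base mean, which is printed under each gene. Negative values have the sign of Msx1. Tgfb2 and Smad3, at -0.45 and -0.44, lie farthest from 0, and the bars widen towards the weakly expressed Tgfb1, Inhba and Fst.

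The comparison of the groups as labelled, which mixes low-Msx1 and high-Msx1 libraries, called no member. On log2(TPM + 1), limma gave 5 members a positive and 5 a negative difference between the libraries labelled mutant and control, with adjusted p of 0.726 to 0.984. The share of genes called over all 12152 was 0.0%, and at an unadjusted p under 0.05 it was 6.72% (231 positive and 586 negative), none of them a member. That split became 410 and 305 with median-of-ratios scaling. Tgfb2 averaged 19.8 ± 2.4 TPM (SD, n = 3) under the mutant label and 17.4 ± 4.2 TPM (SD, n = 3) under the control label, which limma placed at 0.19 ± 0.17 (SE) on the log2 scale (adjusted p = 0.809). Smad3 differed by 0.08 ± 0.26 on the same scale (adjusted p = 0.950 by limma). Smad2 had the smallest p of the members, at -0.24 ± 0.11 (adjusted p = 0.726 by limma). Tgfbr1 was lower in every library labelled mutant than in any labelled control, as were 10.4% of genes, at -0.12 ± 0.08 (adjusted p = 0.752 by limma).

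The other genes of the branch show which ligands and receptors the tissue transcribes. Of the 7 other ligand genes, Gdf11 stood highest, at 14.9 to 19.0 TPM, followed by Inha, the inhibin alpha subunit gene, at 2.62 to 4.18 TPM. Nodal, Mstn and Inhbb did not exceed 0.308, 0.246 and 0.229 TPM in any library. Among the 6 other receptor genes, Acvr2b, an activin type II receptor gene, was at 56.1 to 68.6 TPM, Acvr1b at 10.2 to 13.2 TPM and Acvr2a at 7.52 to 9.20 TPM. Acvr1c, a nodal and activin type I receptor gene, did not exceed 0.027 TPM. Acvrl1 and Eng, receptor genes of endothelium, were at 2.10 to 4.56 TPM and 5.98 to 6.76 TPM, and the 8 endothelial markers summed to 82.4 to 88.9 TPM in low-Msx1 and 80.9 to 94.3 TPM in high-Msx1 libraries.

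No gene of these other lists passed the adjusted p of the authors' deposited table or limma's test of the labelled groups. Of the ligand genes 3 of 7 passed the TPM filter and 1 of those was negative in the authors' deposited table, and of the receptor genes 5 of 6 passed and 3 were negative. The named members by smallest p were Inha at -0.25 ± 0.68 and Gdf11 at 0.03 ± 0.18 among the ligands. Among the receptors they were Acvr1b at -0.18 ± 0.19, Acvrl1 at -0.31 ± 0.47 and Acvr2a at 0.05 ± 0.17 (log2 fold change ± SE in the authors' deposited table).

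Genes of latency, activation and ligand binding outside the cell were evenly split. Of 16 listed, 12 passed the filter, with 6 negative and 6 positive and a median of 0.001 in the authors' deposited table. Fbn2 and Fbn1, the fibrillin genes whose products anchor latent TGF-beta complexes, were the most constant, at 59.1 to 63.5 TPM and 16.5 to 19.2 TPM over all libraries. Ltbp1, a latent TGF-beta binding protein gene, was at 0.22 ± 0.19, and Dcn, a TGF-beta-binding proteoglycan gene, at -0.40 ± 0.61 in the authors' deposited table. Fstl3, a follistatin-like activin-binding protein gene, was listed at 0 in 1 library and did not exceed 2.58 TPM, so no fold is given.

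Regulators inside the cell included the co-Smad gene Smad4, at 26.0 to 32.5 TPM, and the inhibitory Smad7, at 11.5 to 13.7 TPM. Of 14 listed, 13 passed the filter, 9 were negative and 4 positive, and the median was -0.05 in the authors' deposited table. Bambi, a pseudoreceptor gene that dampens TGF-beta and BMP signals, was at -0.27 ± 0.22, and Smurf1, a ubiquitin ligase gene, at -0.22 ± 0.20. These were the 2 of 13 with 1 direction by Msx1 level in all 3 litters, both lower in the low-Msx1 library, a share of 15.4% against 22.7% of all genes. Pmepa1, a TGF-beta-induced feedback gene, was at 0.23 ± 0.28 in the same table, with TPM from 6.39 in the high-Msx1 library of litter 2 to 11.9 in that of litter 1.

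Genes often used as readouts of TGF-beta in mesenchyme were split as well, with 5 negative and 5 positive among the 10 that passed the filter and a median of -0.02 in the authors' deposited table. Col1a2, the collagen chain gene, was the 1 gene of the lists besides Tgfb2 and Smad3 with an unadjusted p under 0.05, at 0.25 ± 0.11 (unadjusted p = 0.0242, adjusted p = 1.00 in the authors' deposited table). It was at 78.8 and 73.1 TPM in litter 1, 72.1 and 63.0 TPM in litter 2, and 90.0 and 65.7 TPM in litter 3, low-Msx1 library first, so its sign was opposite to that of Tgfb2. Cdkn1a, a cell cycle inhibitor gene, was at -0.39 ± 0.25, and Tagln, a smooth muscle gene, at -1.20 ± 1.08 with no more than 2.43 TPM in any library. Tagln did not pass the filter, nor did Cdkn2b, Acta2 and Junb.

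**Figure D5:**
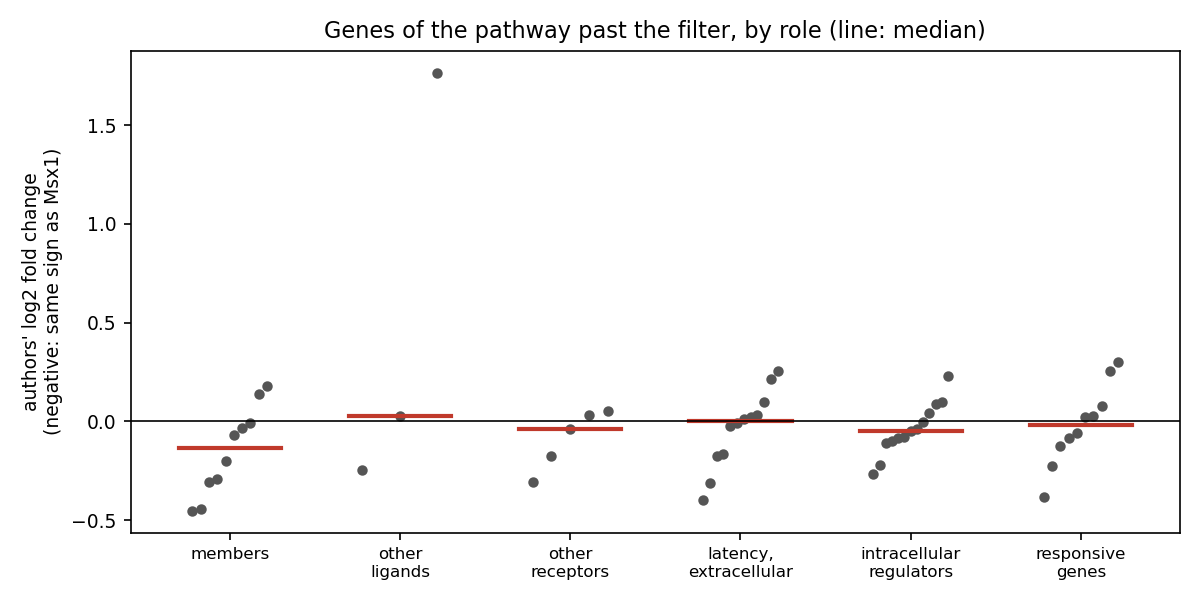
Log2 fold change in the authors' deposited table of each gene past the TPM filter, by role, with 1 point per gene and a line at the median. The medians are -0.14 for the members and between -0.05 and 0.03 for the other lists, and the high point among the ligands is Gdf1, which was listed at 0 in at least 1 library.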

How the data were processed

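Per the file headers, the authors deposited 1 TPM value per gene and library. Salmon 1.5.2, DESeq2 and the build mm10 are named in the submitters' processing notes, with no roles, and the annotation release is not given in the sources used here. In addition, the authors' deposited comparison table holds, per the file headers, a base mean (a signal: the mean normalised count), a log2 fold change with its standard error, a Wald score, and unadjusted and adjusted p-values. Read depth per library is unknown, and precision is judged from the spread between embryos. Listed TPM summed to 716208 to 735601 per library.

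Labelled groups (3 embryos each) were compared with limma 3.58.1 in R 4.3.3, fitted to log2(TPM + 1) with trended, robust moderation of variances; on it, fold changes of weakly expressed genes come out too small. A gene was kept if 3 or more libraries reached 1 TPM, and Benjamini-Hochberg adjustment covered all of them, with a threshold of 0.05. The fit was tested on simulated data. Littermates pair by the design text, although their deviations from the label means had correlations of -0.05, -0.03 and -0.03. P-values rest on these embryos alone. Differences by Msx1 level were computed within litters and not tested. Normal 95% intervals were formed from the SE around the authors' values. Positions are from GENCODE M21 (GRCm38), and promoter windows from RefSeq.

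The members and gene lists were chosen with earlier results of these data known. Named genes were Msx1, every member, and from each other list the 3 genes with the smallest unadjusted p in the authors' table among those with a mean of at least 1 TPM; other names were chosen after their values were seen. Alternatives changed the pseudocount, filter, scaling, litter term and the libraries used.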

Additional observations from a re-analysis of the deposited data

How the results depend on the processing

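The labelled comparison called no member under any alternative run, with member adjusted p of 0.510 to 0.999 by limma. At a mean of at least 5 TPM only 6 members were tested, without Tgfb1, Tgfb3, Inhba and Fst. The replicate block (litter as a term) gave 0 genes higher, 0 lower and 0 members called. In the main fit each labelled group holds low-Msx1 and high-Msx1 libraries. Msx1 itself was not called there (adjusted p = 0.887 by limma) or in the alternatives (0.777 to 0.982). The lack of calls therefore cannot show whether members follow Msx1 level. Leaving out each library gave 0 to 1 gene higher (1 when the control label of litter 1 was left out) and 0 to 1 lower (1 when the mutant label of litter 1 was left out). Of the uncalled member differences, Tgfb1 changed sign with median-of-ratios scaling (0.039), and over the left-out libraries Tgfb1 ranged from -0.15 to 0.17, Smad3 from -0.22 to 0.36 and Fst from -0.18 to 0.22. The number of members past the authors' threshold was 0 at an adjusted p of 0.1 and 2 at an unadjusted p of 0.05. The number with 1 direction by Msx1 level was 3, became 4 with median-of-ratios scaling (24.6% of all genes), where Smad3 in litter 3 moved from 0.07 to -0.03, and was 4 to 7 when leaving out each litter: 5 without litter 1, 4 without litter 2 and 7 without litter 3. Only 2 litters then need to share a sign, and 51.5%, 43.4% and 50.3% of all genes did so. Under the 3 alternatives of scaling and pseudocount Tgfb2 stayed lower in the low-Msx1 library of each litter, with differences of -0.26, -0.41 and -0.62 by median-of-ratios. Read numbers in single libraries are unknown, and the low base means of Inhba and Fst in the authors' table limit what can be said of them.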

Other observations

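Of the 10 TGF-beta-responsive genes past the filter, 5 had 1 direction by Msx1 level in all 3 litters, where 22.7% of all genes did; the list was not tested, and the genes named here were chosen after their values were seen. Snai1, a gene of neural crest and mesenchyme transitions, was at 20.7 and 24.3 TPM in litter 1, 16.5 and 18.7 TPM in litter 2, and 15.8 and 19.0 TPM in litter 3, low-Msx1 library first. The 2 sets of Snai1 libraries overlapped, and the authors' deposited table gave it -0.23 ± 0.28 (SE; unadjusted p = 0.416). Col3a1 and Ccn2 were also lower in the low-Msx1 library of each litter, with within-litter log2 differences of -0.20 to -0.06 for Col3a1 and -0.08 to -0.02 for Ccn2. Scx, a tendon progenitor gene, was higher like Col1a2, at 11.9 and 7.66 TPM in litter 1, 9.36 and 9.34 TPM in litter 2, and 11.2 and 9.09 TPM in litter 3, with 0.30 ± 0.56 (SE) in the authors' deposited table. Genes of this list thus did not share 1 direction.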
